A study of Homo sapiens with 36 samples.

Results

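The endoplasmic reticulum (ER) unfolded protein response was followed through 36 of its genes in 12 groups of cells. The cells carried a guide RNA against a ribosome rescue gene, PELO or HBS1L, or a control guide, with Cas9 induced or not. The genes were taken by name from a list, and all 36 were matched among the 61544 genes of the count table. They comprise 5 sensors or transcription factors, 11 chaperones and co-chaperones, 6 enzymes of disulfide bond formation, 5 genes of protein entry into or export from the ER, and 9 genes of ER-associated degradation. The filter on low counts passed 35 of them. The degradation gene DERL3 had at most 0.0715 counts per 1000000 (CPM) in any library, so it was not tested. It also shares 77% of its exonic length with SMARCB1 on the other strand, which played no part in the filter.

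Secreted and membrane proteins fold in the ER, and when folding falls behind, sensors in its membrane switch on genes that fold, oxidise, move and degrade proteins. IRE1, encoded by ERN1, splices XBP1 messenger RNA so that it encodes an active transcription factor, ATF6 is cut to release another, and PERK (encoded by EIF2AK3) phosphorylates the translation factor eIF2 and so favours ATF4 and DDIT3. The counts are per gene, so they show the amount of XBP1 messenger RNA and not how much of it was spliced.

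All libraries were poly(A) RNA of the human pancreatic carcinoma line MIA PaCa-2, which the series record counts among lines with a destabilised SKI complex, the complex that feeds messenger RNA to the exosome. Each of 3 lines carried doxycycline-inducible Cas9 with a guide RNA against PELO, a guide against HBS1L, or the control guide NTC. Cells in tetracycline-free medium received no doxycycline (dox) or 2 µg/mL dox and were collected at 48 h or 96 h, which gives 12 groups of 3 libraries. Whether a line is 1 clone and whether the 3 libraries of a group came from separate cultures is not given in the sources used here, and p-values cover no more than the variation among these libraries. The control line received the same dox, so what dox does without a targeted gene is measured in it.

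Library totals were 45356024 to 107436235 counts (median 55222338), and 20767 genes were tested. HBS1L itself lay at 33.4 to 37.2 CPM with dox in its line and at 104 to 113 CPM without. PELO messenger RNA gave no check of the labels: in the PELO line it was 25.2 ± 1.33 CPM without dox and 20.7 ± 0.407 with dox at 48 h (mean ± SD, n = 3), and 29.1 ± 1.99 and 28.3 ± 1.45 at 96 h. In what follows the PELO line is the line labelled with the PELO guide. Of 7 epithelial markers 4 reached 1 CPM and their sum was 1606 to 4174 CPM per library, while the epithelial markers CDH1, EPCAM and KRT7 stayed below 1 CPM throughout. Of 6 fibroblast markers 3 reached 1 CPM (COL1A2 at 29.2 to 247.7, COL3A1 at 1.202 to 17.8 and COL1A1 at up to 1.197 CPM), while DCN, LUM and PDGFRA stayed at or below 0.179 CPM. Of 5 endothelial markers ENG (41.03 to 70.9 CPM) and CDH5 (0.723 to 40.65 CPM) reached it, and PECAM1, KDR and VWF stayed at or below 0.145 CPM. Of the leukocyte markers CD68 (20.4 to 43.5 CPM) and CD14 (0.398 to 8.49 CPM) reached it, and PTPRC, CD3E and ITGAM stayed below 1 CPM.

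Short elements in the promoters of several of these genes are known to bind the factors that the sensors release. The ER stress response element (ERSE) joins CCAAT and CCACG with 9 bases between them, the related ERSE-II joins ATTGG and CCACG with 1 base between them, and the UPR element read here is TGACGTGG. RefSeq windows on GRCh38.p14, from 250 bases before to 50 after a transcript start, were on hand for 32 of the 36 genes and were searched on both strands. ERSE was found in 8 of the 32 (25%) and in 25 of 27305 genes with a window (0.0916%). ERSE-II was found in 3 of the 32 (9.38%) against 19 genes (0.0696%), and the UPR element in 1 of the 32 (3.12%) against 253 genes (0.927%). Several of these genes are those in which the elements were first described, so the excess describes the list and is not a result of the libraries, and a match is not a measured binding site.

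The 250 bases before the start are shown for XBP1 and HSPA5, the ERSE genes with the smallest adjusted p in the PELO line at 96 h, read 5′ to 3′ along the gene with the element in capitals.
XBP1, chr22:28800570-28800819, minus strand: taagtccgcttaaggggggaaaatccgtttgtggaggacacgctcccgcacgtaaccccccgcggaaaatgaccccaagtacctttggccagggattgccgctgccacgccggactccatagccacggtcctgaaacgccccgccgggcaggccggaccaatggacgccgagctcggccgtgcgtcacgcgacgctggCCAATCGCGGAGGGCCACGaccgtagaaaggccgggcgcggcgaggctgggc
HSPA5, chr9:125241344-125241593, minus strand: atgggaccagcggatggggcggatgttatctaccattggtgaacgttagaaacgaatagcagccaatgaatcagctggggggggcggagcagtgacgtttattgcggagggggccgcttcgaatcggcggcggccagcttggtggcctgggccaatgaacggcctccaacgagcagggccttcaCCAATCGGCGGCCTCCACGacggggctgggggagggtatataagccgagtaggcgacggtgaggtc

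The elements of the other genes are shown with up to 10 bases on either side, because genes with and without them are set side by side after the expression results. The capitals again mark the element, which reads in reverse where it starts with CGTGG. HSP90B1 has 2 copies of ERSE and HYOU1 has 2 of ERSE-II, of which the first overlaps the only UPR element in the list.
CANX, chr5:179698768-179698806: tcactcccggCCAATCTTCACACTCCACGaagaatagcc
HSP90B1, chr12:103930206-103930244: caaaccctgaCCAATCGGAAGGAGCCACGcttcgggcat
HSP90B1, chr12:103930311-103930349: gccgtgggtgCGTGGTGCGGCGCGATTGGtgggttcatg
CALR, chr19:12938374-12938412: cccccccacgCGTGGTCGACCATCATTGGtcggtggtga
CRELD2, chr22:49918544-49918582: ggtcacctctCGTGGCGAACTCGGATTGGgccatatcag
PDIA6, chr2:10812843-10812881: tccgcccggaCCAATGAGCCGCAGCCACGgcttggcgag
ERO1B, chr1:236282173-236282208: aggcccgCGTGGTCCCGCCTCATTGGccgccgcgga
HYOU1, chr11:119057370-119057400: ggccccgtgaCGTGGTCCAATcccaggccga
HYOU1, chr11:119057264-119057294: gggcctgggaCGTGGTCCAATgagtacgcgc
HERPUD1, chr16:56932015-56932045: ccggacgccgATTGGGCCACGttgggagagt
SDF2L1, chr22:21642104-21642134: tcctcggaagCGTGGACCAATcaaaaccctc

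The 36 genes covered a wide range of levels, and most of those tested were highest in 1 of the 12 groups. Per kilobase of exon, and averaged over the groups, the lectin chaperone CALR (284 CPM per kilobase), the chaperone HSPA5 (281) and the membrane lectin CANX (199) stood highest. ERN1 (1.81 CPM per kilobase) and the export adaptor SEC24D (1.63) stood lowest among the genes tested. Of 35 genes 23 had their highest group mean in the PELO line with dox at 96 h. For 18 of them each of the 3 libraries of that group lay above the other 33 libraries. How many of all genes did either was not counted, and 34.4% of all genes tested rose with dox in that line at 96 h. The ratio of the highest to the lowest group mean in CPM was largest for the co-chaperone DNAJB9 (5.1) and for XBP1 (4.36), and smallest for the degradation lectin OS9 (1.16) and the chaperone HSP90B1 (1.12).

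**Figure D1:**
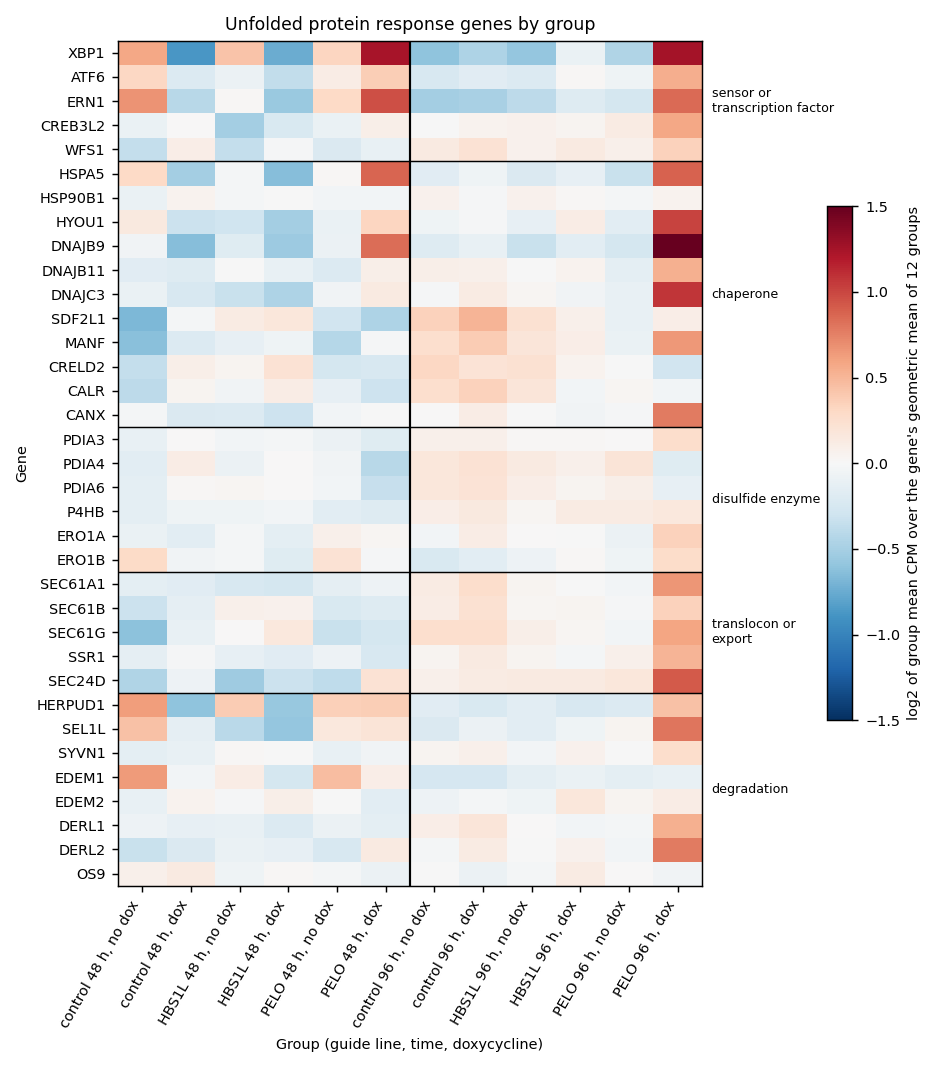
Each cell is the log2 of a group's mean CPM over the geometric mean of the gene's 12 group means (colour scale from -1.5 to 1.5, values beyond it drawn at its ends), with genes in rows by role and groups in columns. The column of the PELO line with dox at 96 h is the highest for 23 of 35 genes, and XBP1 stands at 1.25 there and at -0.88 in the control line with dox at 48 h.

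At 96 h, dox in the PELO line went with higher levels of most of the list. Of 35 genes 26 rose and 3 fell, where 34.4% and 32.5% of all genes tested rose and fell. The median log2 change of the list was 0.45, against 0.00 over all genes. The change in the control line at this time was small: 1 member, the oxidase ERO1A, rose and none fell, with 7.52% of all genes called in either direction. Leaving out 1 of the 6 control libraries moved that count of 1: it was 6 without replicate 3 without dox, 4 without replicate 2 with dox, and 0 without any one of the other 4, namely replicates 1 and 2 without dox and replicates 1 and 3 with dox. Taking the control line's change away, 25 rose and 4 fell, with backgrounds of 28.7% and 26%. The dox libraries lay wholly above the libraries without dox for 26 of the 35 genes, wholly below for 3 and overlapped for 6. How many of all genes tested separated in this way was not counted. RNA came from bulk cultures, so more RNA per cell and more cells with a high level cannot be told apart. Markers moved with this group too: the epithelial sum was 1606 to 1956 CPM in its libraries and 3349 to 3707 CPM without dox, the fibroblast sum 30.6 to 34.9 against 226 to 249.7 CPM (6 genes), the endothelial sum 41.9 to 46.9 against 81.5 to 88.4 CPM (5 genes) and the leukocyte sum 42.2 to 44.7 against 24.5 to 26.2 CPM (6 genes). The sums did not hold for each marker. Of the leukocyte markers CD68 went from a mean of 20.6 CPM without dox to 42.5 CPM with dox, while CD14 fell from 4.24 to 0.547 CPM. The epithelial marker CLDN4 was at 92.9 and 92.5 CPM. The part of the markers in the result was not tested.

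The sensors and transcription factors moved together at 96 h. XBP1 (chromosome 22, 28794555 to 28800597, minus strand, on GRCh38) was at 94.03, 90.8 and 97.4 CPM without dox and 327, 294 and 296 CPM with dox for the PELO line. The control line held 82.8, 83.1 and 87.1 CPM without dox and 91.7, 86.7 and 102 CPM with dox. The dox libraries of the PELO line were thus the highest of the 4 groups without overlap, and the log2 change of XBP1 was 1.70 ± 0.049 (adjusted p = 1.56e-26) within the line and 1.55 ± 0.068 (adjusted p = 2.67e-20) beyond the control line, by edgeR's quasi-likelihood test. ERN1, which encodes the enzyme that splices XBP1, went from 16.5, 15.8 and 13.2 to 28.5, 34.4 and 35.8 CPM, with no overlap. Its log2 change was 1.12 ± 0.098 (adjusted p = 7.82e-12) within the line and 1.09 ± 0.14 (adjusted p = 8.26e-08) beyond the control line. ATF6 went from 114, 109.9 and 111 to 169.9, 170.2 and 171 CPM, a log2 change of 0.61 ± 0.045 (adjusted p = 8.29e-15), or 0.54 ± 0.063 (adjusted p = 2.72e-09) beyond the control line. CREB3L2, a membrane-bound transcription factor akin to ATF6, rose beyond the control line by 0.39 (log2). WFS1, an ER membrane protein that restrains ATF6, rose within the line by 0.27 but was at 0.18 beyond the control line (adjusted p = 0.148). Thus 4 of the 5 rose on that measure, against 28.7% of all genes.

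**Figure D2:**
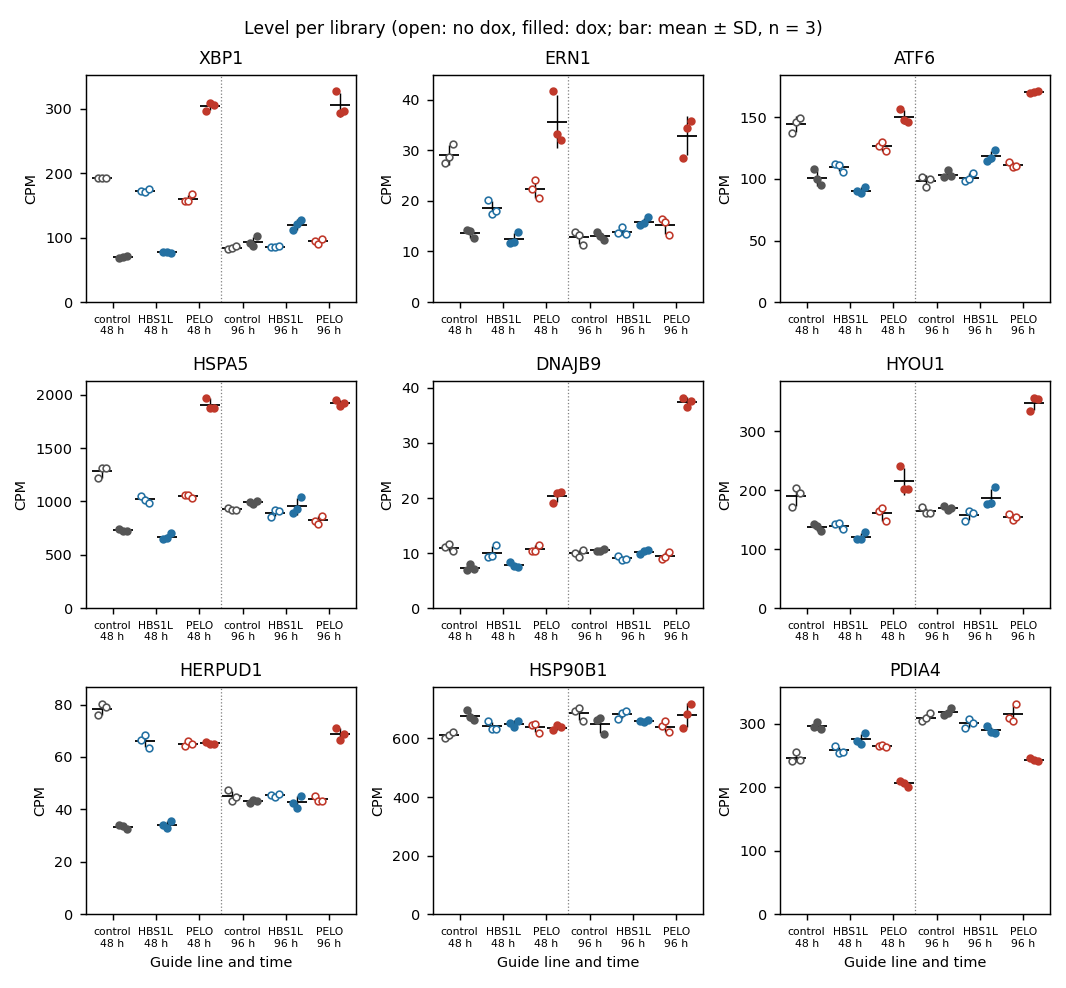
Level in CPM of 9 genes in each library, with open points for no dox, filled points for dox and a bar for the mean ± SD of 3 libraries; the dotted line parts 48 h from 96 h. In the PELO line with dox at 96 h the XBP1 libraries sit between 293.5 and 327 CPM, above the 90.8 to 97.4 CPM without dox, while HSP90B1 overlaps between the 2 conditions and PDIA4 lies below.

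Among the 11 chaperones 8 rose and 2 fell beyond the control line at 96 h, against 28.7% and 26% of all genes. The largest changes were in HSPA5 and the genes that work with it. HSPA5 encodes BiP, the main HSP70 of the ER (chromosome 9, 125234853 to 125241330, minus strand). It was at 814, 787 and 865 CPM without dox and 1946, 1898 and 1920 CPM with dox for the PELO line, and at 919 to 936 and 972 to 1007 CPM in the control line. Its log2 change was 1.23 ± 0.047 (adjusted p = 5e-23) within the line and 1.13 ± 0.065 (adjusted p = 4.65e-17) beyond the control line. DNAJB9, a co-chaperone of BiP that acts back on IRE1, went from 8.93, 9.26 and 10.3 to 38.3, 36.5 and 37.7 CPM. This was the largest change in the list, at a log2 of 1.98 ± 0.068 (adjusted p = 2.14e-24) within the line and 1.90 ± 0.098 (adjusted p = 2e-18) beyond the control line. HYOU1, the nucleotide exchange factor of BiP, went from 160.3, 150.1 and 155 to 335, 358 and 354 CPM, 1.13 ± 0.093 (adjusted p = 1.27e-12) beyond the control line. DNAJC3, a co-chaperone known to restrain PERK, went from 23.9, 23.3 and 24.2 to 50.8, 54.7 and 55.8 CPM, 1.04 ± 0.080 (adjusted p = 1.1e-13) beyond the control line. None of these 4 genes had a dox library within the range of its libraries without dox.

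The other chaperones split. CANX, the membrane-bound lectin, went from 1165, 1168 and 1263 to 2054, 2080 and 2121 CPM, and its log2 change beyond the control line was 0.69 ± 0.054 (adjusted p = 1.51e-13). CALR, its soluble relative, went from 757, 751 and 835 to 768, 723 and 724 CPM, which overlap, and beyond the control line it fell by 0.18 (adjusted p = 0.0108). The co-chaperone DNAJB11 rose from 70.7–72.9 to 113–119.6 CPM, with a log2 change beyond the control line of 0.71 ± 0.057 (adjusted p = 4.36e-13). Of its exonic length 23.2% is shared with other genes, counted on either strand, and some of the overlap is on its own strand. MANF, a secreted factor of stressed ER, went from 31.7–33.1 to 51.9–57.9 CPM, with 0.62 ± 0.072 (adjusted p = 1.93e-09). HSP90B1, the HSP90 of the ER, was at 641, 658 and 623 CPM without dox and 637, 683 and 719 CPM with dox, overlapping, and beyond the control line its log2 change was 0.17 (adjusted p = 0.012), a rise to which the control line's own -0.08 contributed. SDF2L1, which joins DNAJB11 in a chaperone complex, was at 0.04. CRELD2, a secreted ER stress protein, fell from 20.7–20.9 to 16.99–17.2 CPM, with log2 changes of -0.28 within the line and -0.17 beyond the control line.

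The 6 disulfide enzymes were divided in direction, with 3 up and 2 down beyond the control line at 96 h. Over all genes tested the shares were 28.7% higher and 26% lower. Whether so few genes depart from these shares was not tested. PDIA4, a member of the protein disulfide isomerase family, was at 309.9, 304 and 332 CPM without dox and 245, 242 and 241 CPM with dox for the PELO line. These libraries did not overlap, and the log2 change was -0.38 ± 0.036 (adjusted p = 1.2e-11) within the line and -0.41 ± 0.051 (adjusted p = 7.96e-09) beyond the control line. PDIA6, of the same family, fell from 439.6–486 to 386–397 CPM, with -0.26 beyond the control line; 25.2% of its exonic length is shared with ATP6V1C2 on the other strand. PDIA3, the isomerase that works with CANX and CALR, rose from 316–334 to 381–395 CPM, by 0.25 beyond the control line; 18.9% of its exonic length is shared with genes on the other strand. The oxidases that recharge the isomerases, ERO1A and ERO1B, rose by 0.29 and 0.26. P4HB, the most studied isomerase, was at 518, 504 and 568 CPM without dox and 568, 526 and 538 CPM with dox, and its change beyond the control line was -0.01 ± 0.064 (adjusted p = 0.953).

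All 5 genes of entry and export rose at 96 h, within the PELO line and beyond the control line. Of all genes 34.4% and 28.7% did so. SEC61A1, the pore of the channel through which proteins enter the ER, was at 322, 317 and 359 CPM without dox and 549.7, 529 and 537 CPM with dox. The libraries with dox were also above those of the control line with dox (386 to 439 CPM), and the log2 change beyond the control line was 0.56 ± 0.069 (adjusted p = 8.92e-09). SEC61G, a small subunit of the channel, went from 63.5–66.8 to 97.96–105 CPM, 0.63 ± 0.11 (adjusted p = 1.84e-05) beyond the control line. Its partner SEC61B rose by 0.24 and SSR1, of the channel's associated TRAP complex, by 0.34. SEC24D, which selects cargo for vesicles that leave the ER, went from 17.6, 17.2 and 17.8 to 28.1, 29.3 and 30.9 CPM without overlap, with a log2 change of 0.70 ± 0.10 (adjusted p = 2.2e-07) beyond the control line.

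Of the 8 degradation genes tested 5 rose and none fell beyond the control line at 96 h, against 28.7% and 26% of all genes. HERPUD1, a scaffold of the degradation complex, was at 45.05, 43.4 and 43.3 CPM without dox and 71.1, 66.4 and 68.6 CPM with dox for the PELO line, a log2 change beyond the control line of 0.71 ± 0.060 (adjusted p = 9.6e-13). SEL1L, the adaptor of the ubiquitin ligase, went from 61.4, 59.3 and 62.8 to 101, 107 and 104 CPM, with 0.64 ± 0.11 (adjusted p = 7.56e-06). DERL2, a channel protein of the same complex, went from 34, 32.8 and 35.4 to 60.01, 59.1 and 61.7 CPM, with 0.66 ± 0.074 (adjusted p = 1.1e-09). None of these 3 genes had overlapping libraries. DERL1 rose by 0.55 within the line and 0.47 beyond the control line, and SYVN1, the ligase itself, by 0.23 beyond it. The mannose-trimming genes EDEM1 and EDEM2 and the lectin gene OS9 did not pass the test, at 0.04 ± 0.082, 0.03 ± 0.075 and 0.01 ± 0.055.

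At 48 h the picture rested on cells without dox as much as on cells with it. Within the PELO line 12 of the 35 genes rose and 8 fell, with 24.2% and 23.7% of all genes called in those directions. In the control line 14 rose and 11 fell, against 19% and 16% of all genes. Beyond the control line 13 rose and 11 fell, against 22.9% and 24.9%, and the median log2 change of the list was 0.02, against -0.04 over all genes. Several genes that rose in the PELO line were high in the control line without dox and low with it, so the difference between the responses joins a rise in one line to a fall in the other.

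XBP1 at 48 h was at 156, 157 and 168 CPM without dox and 297, 309 and 306 CPM with dox for the PELO line. In the control line it was at 193, 192 and 192 CPM without dox and 68.6, 69.7 and 71.9 CPM with dox. The groups did not overlap in either line and moved in opposite directions, with log2 changes of 0.92 ± 0.048 (adjusted p = 3.71e-18) and -1.45 ± 0.049 (adjusted p = 1.76e-23). The difference between them was 2.38 ± 0.068 (adjusted p = 1.81e-25). The control line with dox held the lowest XBP1 libraries of the study. ERN1 and ATF6 also moved in opposite directions: ERN1 went from 20.6–24.2 to 32.1–41.6 CPM within the PELO line and from 27.4–31.2 to 12.6–14.3 CPM in the control line, a difference of 1.76 ± 0.14 (adjusted p = 3.16e-12). ATF6 rose by 0.25 in the PELO line and fell by 0.51 in the control line, a difference of 0.76 ± 0.063 (adjusted p = 1.48e-12). WFS1 was at 0.11 in the PELO line but rose in the control line, and so was at -0.35 beyond it.

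HSPA5 went from 1059, 1061 and 1032 to 1973, 1871 and 1875 CPM within the PELO line at 48 h and from 1215, 1315 and 1315 to 746, 725 and 721 CPM in the control line. With dox the libraries of the PELO line were above each library of the control line, and the log2 change was 0.86 ± 0.046 (adjusted p = 1.16e-17) within the line and 1.67 ± 0.065 (adjusted p = 8.08e-22) beyond the control line. DNAJB9 rose from 10.3–11.6 to 19.1–21.1 CPM, 0.92 ± 0.069 (adjusted p = 8.57e-14) within the line, and 1.5 ± 0.10 (adjusted p = 5.39e-15) beyond the control line. HYOU1 rose by 0.42 within the line and 0.89 ± 0.093 (adjusted p = 6.91e-10) beyond the control line, where it fell from 171–204 to 131–143 CPM. HERPUD1 and SEL1L did not pass the test within the PELO line, at 0.01 and 0.04, and fell in the control line, with -1.23 and -0.58 on the log2 scale. Their changes beyond the control line of 1.24 ± 0.060 (adjusted p = 4.14e-19) and 0.62 ± 0.11 (adjusted p = 1.72e-05) thus consisted mostly of the control line's fall. The export gene SEC24D rose in both lines, by 0.60 ± 0.075 (adjusted p = 2.07e-08) in the PELO line and 0.37 in the control line, and was at 0.23 beyond the latter.

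The 11 genes that fell beyond the control line at 48 h were 4 chaperones, 3 disulfide enzymes, 2 genes of protein entry, the sensor regulator WFS1 and the degradation gene EDEM2. PDIA4 went from 265, 267 and 264 to 211, 206 and 201 CPM within the PELO line and from 242, 256 and 243 to 295, 303 and 291 CPM in the control line. The groups did not overlap in either line, and the responses differed by -0.63 ± 0.051 (adjusted p = 8.15e-13). CALR went from 686–730.2 to 610.5–622 CPM within the PELO line and from 559.8–596 to 772–793 CPM in the control line, -0.62 ± 0.059 (adjusted p = 4.45e-11). SDF2L1 did not pass the test within the PELO line (-0.18) and rose in the control line, -0.82 ± 0.12 (adjusted p = 5.04e-07) between the responses. Beyond the control line PDIA6 was at -0.47, CRELD2 at -0.42 and PDIA3 at -0.22, each past the test. With dox the 3 libraries of the PELO line at 48 h were the lowest of the study for PDIA3, PDIA4 and PDIA6. The channel genes SEC61G and SSR1 were at -0.44 and -0.28 beyond the control line, and both rose at 96 h.

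**Figure D3:**
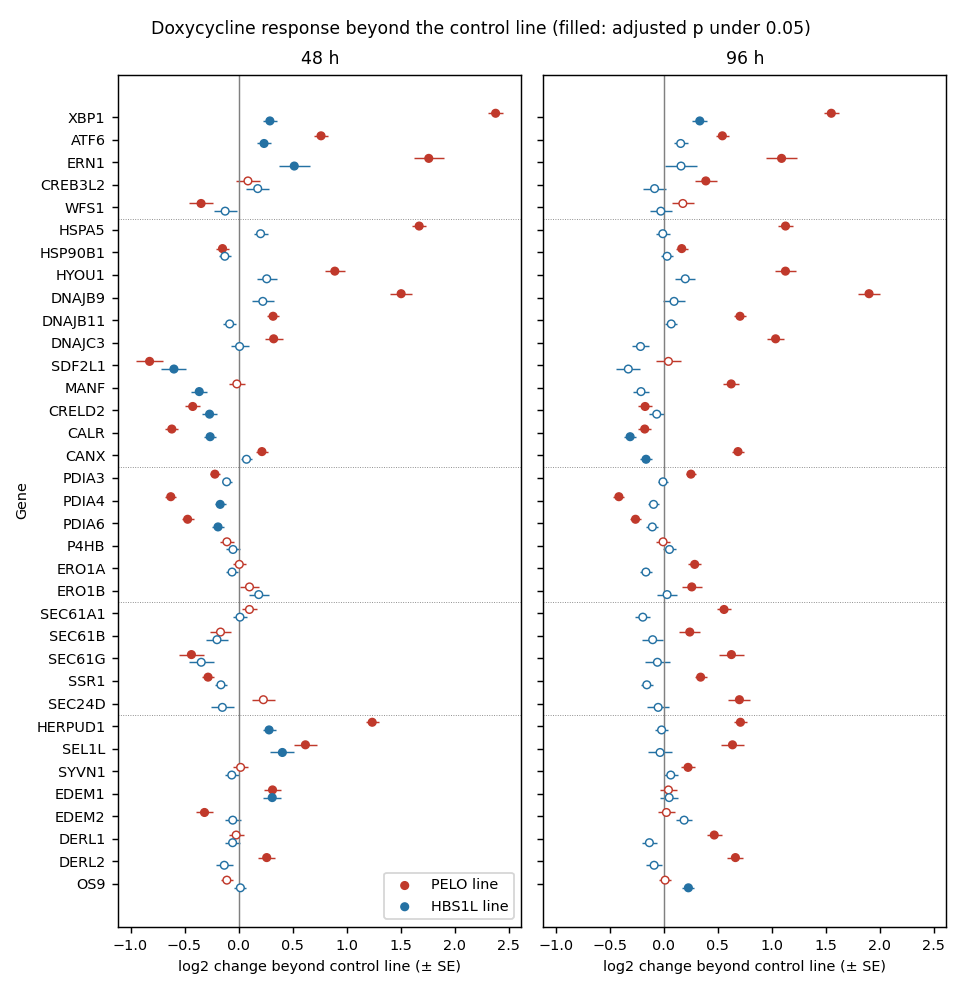
Log2 change with dox beyond the control line (± SE) of 35 genes in the PELO line (red) and the HBS1L line (blue) at 48 h and 96 h, ordered by role; filled points have an adjusted p under 0.05. At 96 h 25 PELO points are filled to the right of 0 and 4 to the left, and the HBS1L points lie between -0.33 and 0.33.

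Between 48 h and 96 h the PELO line's response grew for most of the list. The change was higher at 96 h for 26 of 35 genes and lower for 1, CRELD2 (-0.30), where 22.1% and 19.9% of all genes were called in those directions. The median difference of the list was 0.39, against 0.02 over all genes. It was largest for DNAJB9 (1.06 ± 0.096), DNAJC3 (0.98 ± 0.081), XBP1 (0.78 ± 0.067), CANX (0.77 ± 0.054) and HYOU1 (0.75 ± 0.093). CANX was at 1194 to 1223 CPM with dox at 48 h and 2054 to 2121 CPM at 96 h, while without dox it was at 1161 to 1205 and 1165 to 1263 CPM. SEC61A1 showed the same order, with 0.07 at 48 h and 0.69 at 96 h. For PDIA4 the responses at the 2 times differed by -0.01 ± 0.051 (adjusted p = 0.879). The libraries of the 2 times carry separate runs of library numbers, so time and library batch cannot be told apart in these differences of responses.

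Levels without dox also differed between the times. XBP1 without dox was at 156 to 168 CPM at 48 h and 90.8 to 97.4 CPM at 96 h in the PELO line, while with dox it was 297 to 309 and 294 to 327 CPM. In the control line the response itself differed between the times for 22 of 35 genes, 13 higher and 9 lower at 96 h, with 26.5% of all genes called in either direction. XBP1 was the largest of these at 1.60 ± 0.069, then HERPUD1 at 1.17 ± 0.060 and ERN1 at 1.12 ± 0.14. The control cells without dox at 48 h also held the highest libraries of the study for HERPUD1 (75.8 to 80.3 CPM) and EDEM1 (55.3 to 55.9 CPM).

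**Figure D4:**
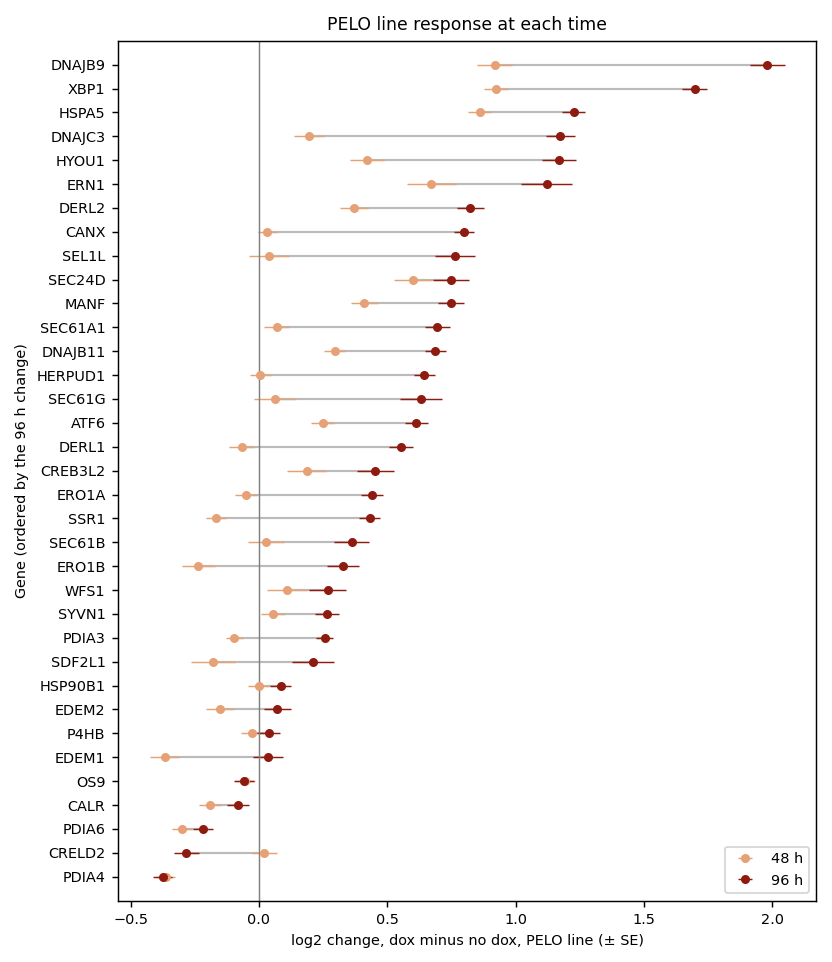
Log2 change with dox in the PELO line (± SE) at 48 h (light) and 96 h (dark) for 35 genes, ordered by the 96 h value, with a line joining the 2 times. Of these genes 26 lay significantly further to the right at 96 h, and PDIA4 stands at -0.36 and -0.38.

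In the HBS1L line fewer of the genes passed the test than in the PELO line. Within it 5 of 35 genes rose and 10 fell at 48 h, with 21.5% of all genes called in either direction, and 5 rose and 2 fell at 96 h, with 19.9%. Beyond the control line 6 rose and 6 fell at 48 h, where 1.41% and 2.44% of all genes rose and fell, and 2 rose and 2 fell at 96 h, where 10.7% were called in either direction. At 96 h both counts, within the line and beyond the control line, lay near these shares. The 2 that rose beyond the control line at 96 h were XBP1 and OS9 (0.23), and those that fell were CALR (-0.31) and CANX (-0.16). The 48 h count of 12 beyond the control line came to 5 if replicate 3 of the dox-treated control line was left out, to 6 if replicate 3 of the untreated control line was, and to 6 if replicate 3 of the untreated HBS1L line was. The 96 h count of 4 came to 7 if replicate 3 of the untreated control line was left out. DESeq2 called 9 members at 96 h in place of 4. These values and those of the PELO line are taken against the same control libraries.

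XBP1 in the HBS1L line followed the control line at 48 h and rose at 96 h. It went from 172, 171 and 175 to 76.9, 77.03 and 76.8 CPM at 48 h, a log2 change of -1.17 ± 0.049 (adjusted p = 3.28e-20) within the line and 0.29 ± 0.068 (adjusted p = 0.00915) beyond the control line. At 96 h it went from 84.6, 85.7 and 87.6 to 112, 121 and 128 CPM, without overlap, 0.48 ± 0.048 (adjusted p = 1.68e-09) within the line and 0.33 ± 0.068 (adjusted p = 0.00102) beyond the control line. ATF6 went from 106–112 to 88.3–93.4 CPM at 48 h, and its change beyond the control line was 0.24 ± 0.063 (adjusted p = 0.0258). With no filter on low counts this was not called (adjusted p = 0.0858). It was also lost on leaving out replicate 2 or 3 of the untreated control line (adjusted p = 0.0622 and 0.0848) or of the treated one (0.0628 and 0.112), or replicate 3 of the untreated (0.0845) or treated (0.0851) HBS1L line. ERN1 was at 0.51 ± 0.14 (adjusted p = 0.0338) beyond the control line at 48 h, and this call too was lost on leaving out replicate 2 or 3 of the untreated control line (adjusted p = 0.0536 and 0.0951), replicate 3 of the treated one (0.105), replicate 2 or 3 of the untreated HBS1L line (0.0861 and 0.0744) or replicate 3 of the treated one (0.124). At 96 h ATF6 rose by 0.23 within the line and was at 0.16 beyond the control line (adjusted p = 0.111), and ERN1 was at 0.16 (adjusted p = 0.564).

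HSPA5 in the HBS1L line was at 855, 922 and 911 CPM without dox and 892, 927 and 1042 CPM with dox at 96 h, which overlap. Its change beyond the control line was -0.01 ± 0.065 (adjusted p = 0.96) at 96 h, and at 48 h it was 0.20 ± 0.065 (adjusted p = 0.0719), which CPM filtering, DESeq2 and fits on fewer libraries moved past the threshold (adjusted p = 0.0193 to 0.0396). At 48 h it fell within the line, by 0.61 on the log2 scale, with the control line's own -0.81 beside it. HERPUD1 fell with dox at 48 h from 63.5–68.5 to 33.05–35.8 CPM, -0.95 ± 0.042 (adjusted p = 1.81e-19) within the line and 0.28 beyond the control line. SDF2L1 was at 16.99, 15.03 and 16.7 CPM without dox and 17.2, 16.6 and 16.5 CPM with dox at 48 h, which overlap. The control line rose from 8.50–10.5 to 13.5–16.01 CPM, and the responses differed by -0.60 ± 0.12 (adjusted p = 0.00153). DNAJB9, which had the largest change of the 35 genes in the PELO line at 96 h, was at 8.76 to 9.45 CPM without dox and 9.79 to 10.6 CPM with dox at 96 h (0.10 beyond the control line).

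Set against each other directly, the responses of the 2 targeted lines differed for most of the list at 96 h. The PELO response was higher for 13 of 35 genes and lower for 4 at 48 h, which is near the 43.2% of all genes called in either direction. The median size of the log2 difference at 48 h was 0.223 for the list and 0.335 over all genes. At 96 h it was higher for 27 and lower for 3, with 29.1% and 26.4% of all genes higher and lower. The widest differences at 96 h were DNAJB9 (1.80 ± 0.099, adjusted p = 1.22e-17), DNAJC3 (1.25 ± 0.080, adjusted p = 8.61e-16) and XBP1 (1.22 ± 0.068, adjusted p = 1.98e-17), followed by HSPA5 (1.14 ± 0.065). Those lower in the PELO line were PDIA4 (-0.32), PDIA6 (-0.16) and OS9 (-0.22). At 48 h XBP1 (2.09 ± 0.068), HSPA5 (1.47 ± 0.065), DNAJB9 (1.28 ± 0.10) and ERN1 (1.24 ± 0.14) differed most. The HBS1L line's response was higher at 96 h than at 48 h for 10 genes and lower for 4, with 22.4% of all genes called in either direction.

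The lines were also compared at the same dox state, a comparison that carries any lasting difference between lines. With dox at 96 h the PELO line was above the control line for 25 of 35 genes and below it for 5, where 33.1% and 31.1% of all genes were higher and lower. The 5 were SDF2L1 (-0.42), CRELD2 (-0.49), CALR (-0.40), PDIA4 (-0.39) and PDIA6 (-0.34). With dox at 48 h it was above for 16 and below for 11, with 57.3% of all genes called. XBP1 was at 2.12 and 1.71 at the 2 times. The HBS1L line with dox was above the control line with dox for 5 and below for 12 at 48 h (23.1% of all genes called), a count of 17 that came to 9 with no filter on low counts. It came to 2 and 6 without replicates 1 and 2 of the control line with dox, and to 6 and 3 without replicates 1 and 2 of the HBS1L line with dox. The HBS1L line was above for 7 and below for 14 at 96 h (29.8% of all genes called), with log2 differences from -0.44 to 0.36; that count of 21 came to 13 without replicate 3 of the control line with dox.

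Cells without dox also differed between the lines at 48 h. Without dox at 48 h the PELO line was above the control line for 5 of 35 genes and below it for 8 (11.1% of all genes called); these 13 came to 7 without replicate 3 of either group. The HBS1L line was above for 10 and below for 13 (37.9% of all genes called). SEL1L was at 73.2, 80.01 and 88.7 CPM in the control line and 46.95, 45.9 and 41.6 CPM in the HBS1L line, without overlap. SDF2L1 was at 10.5, 8.95 and 8.50 CPM in the control line and 16.99, 15.03 and 16.7 CPM in the HBS1L line, also without overlap. Their log2 differences were -0.85 ± 0.078 (adjusted p = 8.42e-10) and 0.80 ± 0.084 (adjusted p = 4.32e-09). At 96 h the PELO line was above for 3 and below for 8 (21.8% of all genes called). For the HBS1L line at 96 h edgeR called 0 members and 0.135% of all genes, with 3 members at an unadjusted p under 0.05 and 0 members called by DESeq2 or limma.

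Other genes of the pathway were read from a list of 136, of which 133 were tested. Beyond the control line the PELO line had 68 higher and 31 lower at 96 h and 48 higher and 41 lower at 48 h, and the HBS1L line 18 and 15 at 96 h and 7 and 2 at 48 h. Over all genes tested the shares called higher and lower were 28.7% and 26% for the PELO line at 96 h and 22.9% and 24.9% at 48 h; for the HBS1L line they were 1.41% and 2.44% at 48 h, and 10.7% in either direction at 96 h. Of the 10 tested genes of the PERK arm 9 rose beyond the control line in the PELO line at both times, with median log2 changes of 2.53 at 48 h and 1.89 at 96 h, and 6 (48 h) and 7 (96 h) did so in the HBS1L line. At 48 h 9 of the 10 fell with dox in the control line itself (median -1.38) and 9 fell within the HBS1L line (median -1.11), while 8 rose within the PELO line (median 0.63). Of all genes 16% fell in the control line, 21.5% were called in either direction in the HBS1L line and 24.2% rose in the PELO line. PERK targets are shared with other kinases that phosphorylate eIF2, so their counts do not single out the ER. EIF2AK3, which encodes PERK itself, went from 14.4 ± 0.589 to 18.5 ± 0.718 CPM within the PELO line at 96 h, and its change beyond the control line was 0.23 ± 0.10 (adjusted p = 0.0562). That of ATF4, the factor favoured by eIF2 phosphorylation, was 1.94 ± 0.091 (adjusted p = 2.24e-19), from 234 ± 28.3 to 803 ± 27.4 CPM. That of its target DDIT3 was 2.21 ± 0.11 (adjusted p = 2.72e-18), from 15.5 ± 2.27 to 68.6 ± 3.20 CPM. At 48 h the same differences were 0.23 ± 0.10 for EIF2AK3 (adjusted p = 0.071), 1.89 ± 0.090 for ATF4 and 2.80 ± 0.11 for DDIT3, and ATF4 fell in the control line from 565 ± 15 to 234 ± 6.42 CPM. EIF2AK3 lay near the threshold. At 96 h edgeR fits on the 18 libraries of the time or the groups compared called it (adjusted p = 0.0394 and 0.0442). At 48 h a filter of 1 CPM in 3 libraries did so (0.0441). So did leaving out replicate 1 of the untreated (0.04) or treated (0.0197) control line, or replicate 2 of the untreated PELO line (0.042).

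In the HBS1L line genes of the same arm passed the test as well. DDIT3 went from 11.8 ± 1.02 to 21.9 ± 1.15 CPM at 96 h, 0.96 ± 0.12 (adjusted p = 3.98e-07) beyond the control line. ATF4 was at 0.52 ± 0.090 (adjusted p = 0.000142) and TRIB3, a pseudokinase induced by ATF4 and DDIT3, at 0.88 ± 0.083 (adjusted p = 1.84e-09). Beyond the control line the ER-phagy receptor CCPG1 was at 0.55 at 48 h and 0.52 at 96 h. Within the HBS1L line it was not called higher with dox at 48 h. Against this, XBP1 was the only one of the 5 sensors or transcription factors called in that line beyond the control line at 96 h, at 0.33.

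The remaining groups of ER genes held called genes in both directions beyond the control line in the PELO line at 96 h. The counts are to be read against 28.7% of all genes higher and 26% lower, and those for COPII export and retrieval and for ER-phagy lie near these shares. Of 21 genes of translocation and signal peptide cleavage 16 rose and 3 fell, led by the signal peptidase subunit SEC11C, which went from 20.4 ± 0.6 to 55.8 ± 2.87 CPM (1.33 ± 0.083, adjusted p = 3.24e-16). Of 24 other degradation genes 14 rose and 4 fell, led by SELENOS, a DERL-binding selenoprotein, from 17.8 ± 0.579 to 54.5 ± 1.39 CPM (1.52 ± 0.081, adjusted p = 5.29e-18). Among 25 other folding genes 10 rose and 6 fell, and among 17 of N-glycan addition and trimming 7 rose and 6 fell, led by the mannosyltransferase ALG2 (1.06 ± 0.063). Of 18 genes of COPII export and retrieval 6 rose and 4 fell, and the retrieval receptor KDELR1 went from 289 ± 3.57 to 173 ± 9.51 CPM (-0.73 ± 0.056, adjusted p = 9.51e-14). Of 12 genes of sensor processing and regulation 4 rose and 6 fell, and MAP3K5, a kinase that IRE1 is known to engage, went from 50.4 ± 2.28 to 21.8 ± 1.15 CPM (-1.36 ± 0.082, adjusted p = 1.75e-16). Of 6 ER-phagy receptors 2 rose and 2 fell, with CCPG1 at 0.96 ± 0.074.

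Genes with the promoter elements shown above were called in both directions, and whether genes with and without them differ was not tested. Of the 8 genes with ERSE 5 rose and 3 fell beyond the control line at 96 h in the PELO line, with log2 changes from -0.26 to 1.55. The 5 were XBP1, HSPA5, CANX, ERO1B and HSP90B1, and the 3 were CALR, CRELD2 and PDIA6. Over all genes the shares were 28.7% higher and 26% lower. Of the 24 genes with a window and no ERSE 17 rose and 1, PDIA4, fell, with a median of 0.47 against 0.21 for the 8. These 24 include the 3 genes with ERSE-II, of which HYOU1 also has the UPR element, so they are not free of related elements. XBP1 and PDIA6 each carry 1 copy of the element in the same orientation, at 52 and 86 bases before their starts, and their changes were 1.55 and -0.26. HSP90B1 carries 2 copies and was at 0.17. Of the 3 genes with ERSE-II, HYOU1 and HERPUD1 were at 1.13 and 0.71, and SDF2L1 at 0.04. DNAJB9, with the largest change of the list, had none of the 3 elements in its window, which says only that these letters are not in this stretch.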

How the data were processed

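Poly(A) RNA of 36 libraries in 12 groups of 3 was analysed. The authors deposited a table of expected counts per Ensembl gene and a table of log2 CPM; 45.6% of the count values above 0 were not whole numbers. GRCh38.p13, edgeR, limma, Subread, featureCounts and DRAGEN are named in the submitters' processing notes; for their versions, order, strand setting and annotation the sources used here give nothing. Reads of overlapping genes may therefore be shared between them. The expected counts were rounded, filtered with filterByExpr (minimum count 10, minimum total 15) to 20767 genes, scaled by TMM and fitted in edgeR 4.0.16 (R 4.3.3) as 1 quasi-likelihood model with 1 mean per group and 24 residual degrees of freedom. Contrasts were tested by the quasi-likelihood F test and adjusted (Benjamini-Hochberg, 0.05) over all 20767 genes, which is what rose, fell or called means. Levels are CPM on TMM-scaled library sizes, with mean ± SD (n = 3), and log2 changes are ± SE. The deposited log2 table served, with limma 3.58.1, as an alternative, as did DESeq2 1.42.0.

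A response is dox minus no dox within a line, and a response beyond the control line is that difference minus the control line's. Depth was 45356024 to 107436235 counts per library, and count errors are part of the fitted spread. Library numbers of the 2 times form separate runs, so time and batch cannot be told apart. No column of the tables was left unused. Gene positions are from GENCODE 29 on GRCh38 and promoter windows from RefSeq on GRCh38.p14; 4 genes (PDIA3, SEC24D, DERL1 and DERL3) had no window in the table used, and protein sequences were not used here.

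The 36 genes, the other ER gene lists, the tests and the alternatives were chosen with earlier results of these data known. Full statistics are given for members with an adjusted p under 0.05 and a log2 change of at least 0.5 in size in a response of the PELO or HBS1L line, and always for XBP1, ATF6, ERN1 and HSPA5; of the other ER genes, EIF2AK3, ATF4, DDIT3 and the gene with the smallest adjusted p of a group were named. The scripts were tested on simulated data.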

Additional observations from a re-analysis of the deposited data

Results flagged for a closer look

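A result is given here where the same gene passed the test in opposite directions in 2 lines or at 2 times. The difference itself had to pass the test as well. Single deviating libraries were not a criterion. Between 2 libraries of a group the chi-square per degree of freedom of the counts was 1.81 to 19.1. It was at least 13.4 for pairs with replicate 3 of the untreated PELO line (48 h and 96 h) or of either control group at 96 h. Pairs with replicate 1 of the dox-treated PELO line (48 h and 96 h) also reached this. The remaining pairs of these groups were at 1.81 to 4.33. No cause was tested. All values below are log2 differences.

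Between the PELO and control lines at 48 h, genes that rose with dox in the PELO line and fell in the control line were XBP1 (difference 2.38), ERN1 (1.76), HSPA5 (1.67), DNAJB9 (1.5), HYOU1 (0.89) and ATF6 (0.76). Those that fell in the PELO line and rose in the control line were PDIA4 (-0.63), CALR (-0.62), PDIA6 (-0.47), EDEM2 (-0.32), SSR1 (-0.28) and PDIA3 (-0.22).

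Between the PELO and HBS1L lines at 48 h, XBP1 (2.09), HSPA5 (1.47), DNAJB9 (1.28), ERN1 (1.24), HYOU1 (0.63) and ATF6 (0.53) rose in the PELO line and fell in the HBS1L line, and CALR (-0.35) did the reverse.

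Between the times, PDIA3 (0.35), ERO1B (0.56) and SSR1 (0.6) fell at 48 h and rose at 96 h within the PELO line. Within the HBS1L line XBP1 (1.65), ATF6 (0.51) and HYOU1 (0.45) fell at 48 h and rose at 96 h, and CRELD2 (-0.35) and CALR (-0.38) did the reverse; time and library batch cannot be told apart.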

How the results depend on the processing

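No value of a named gene that passed the test in the main or an alternative setting changed direction between them. Changes of sign in values that passed in neither setting were not counted. Of 856 values of named genes under settings other than leaving out a library, 843 kept their side of the threshold, 10 gained a call and 3 lost it; with 1 library left out 1069 kept it, 4 gained it and 19 lost it.

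The call rule mattered most for counts. Called only if also at least 1.5-fold, the members numbered 5 (48 h) and 16 (96 h) for dox in the PELO line, 3 and 0 in the HBS1L line, 6 and 0 in the control line, 11 and 14 for the PELO response beyond the control line, 1 and 0 for that of the HBS1L line, and 6 and 16 for the PELO response minus the HBS1L response. With both on dox they numbered 6 and 12 for the PELO line against the control line and 0 and 0 for the HBS1L line; without dox 0 and 0 for the PELO line and, at 48 h, 4 for the HBS1L line. Between the times they numbered 10 in the PELO line, 4 in the HBS1L line and 7 in the control line.

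With no filter on low counts the HBS1L line against the control line, both on dox at 48 h, had 9 members called (17 as reported). For the control line at 96 h (1 as reported) the count was 2 with DESeq2 size factors, 3 with a replicate block, 0 with the groups compared alone, 4 with limma on the deposited log2 table and 4 with DESeq2. For the HBS1L response beyond the control line at 96 h (4 as reported) it was 8 with a filter of 1 CPM in 3 libraries and 9 with DESeq2. The replicate block changed no other count by more than 1.5 times, and same-numbered libraries share only a number: their deviations from the group means had a median correlation of -0.00572 at 48 h and -0.0129 at 96 h (45 pairs each). The causes were not tested.

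Leaving out each library in turn gave 5 to 13 members for the HBS1L response beyond the control line at 48 h and 3 to 7 at 96 h, 2 to 15 for the HBS1L line against the control line on dox at 48 h and 13 to 20 at 96 h, 7 to 13 for the PELO line against the control line without dox at 48 h, and 0 to 6 for the control line at 96 h. For the PELO response beyond the control line it gave 23 to 25 at 48 h and 27 to 28 at 96 h. At this depth 1 member, DERL3, was too low to test.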
